A study of Homo sapiens with 54 samples.

Results

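The genes followed here are 9 members of the system by which cells cut the matrix around them: the metalloproteinases MMP1, MMP3 and MMP14, their inhibitors TIMP1, TIMP2 and TIMP3, and PLAU, PLAUR and PLAT of the plasminogen system. They were taken by name from a fixed list, by a rule that used no measured value, but with earlier results of these data known. All 9 were found among the 27978 genes of the count table. The cells were MDA-MB-231, a triple-negative breast cancer line in long use, and strand-specific RNA-seq of their poly(A) RNA gave 54 libraries of 18 groups with 3 replicates each, which the series' design calls biological. Compound Kushen Injection (CKI) is an extract of medicinal plant roots, and the study asked which of its compounds carry its effects by taking single compounds out of it. Cells were left untreated (UT), given CKI at 2 mg/ml, or given 1 of 8 mixtures at the equivalent dose.

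The mixtures carry the names of the labels. OO held oxymatrine and oxysophocarpine alone, and MOO held macrozamin as well. N_2 was CKI without oxymatrine and oxysophocarpine, and N_3 was CKI without macrozamin and those same alkaloids. N_Mac, N_Nme, N_Omt and N_Tri were CKI without macrozamin, N-methylcytisine, oxymatrine and trifolirhizin, in that order. UT, CKI, OO, MOO, N_2 and N_3 were sampled at 24 and 48 h in batch 1, and UT, CKI and the 4 single removals at 48 h in batch 2. The labels call the controls UT only and name no vehicle for these cells. All groups are of 1 cell line in culture, with no stroma and no matrix supplied, so every value is a transcript level and none is a protease activity.

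Collagenases such as MMP1 open the helix of fibrillar collagen, stromelysins such as MMP3 cut other matrix proteins and activate collagenases, and the membrane-bound MMP14 acts at the cell surface. The TIMPs bind the active sites of these enzymes. Urokinase (PLAU) and tissue plasminogen activator (PLAT) turn plasminogen into plasmin, and PLAUR holds urokinase at the surface of the cell. MDA-MB-231 cells are widely used in work on invasion and are known to make much of this machinery themselves.

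Promoter sequences are shown for 3 members whose levels moved in different directions: PLAUR, which rose with most treatments, TIMP3, which fell with most, and TIMP1, which rose with CKI and fell with several mixtures. Each is the stretch of 250 bases before the RefSeq start site, given 5′ to 3′ on the gene's strand in GRCh38.p14 (the counts themselves were made on hg19). The windows lie at chr19:43670170-43670419 (minus strand) for PLAUR, chr22:32801455-32801704 (plus strand) for TIMP3 and chrX:47582186-47582435 (plus strand) for TIMP1. Capitals mark the AP-1 motif TGANTCA and the GC box GGGCGG, which reads CCGCCC on the other strand. No match of one overlapped a match of the other.
PLAUR: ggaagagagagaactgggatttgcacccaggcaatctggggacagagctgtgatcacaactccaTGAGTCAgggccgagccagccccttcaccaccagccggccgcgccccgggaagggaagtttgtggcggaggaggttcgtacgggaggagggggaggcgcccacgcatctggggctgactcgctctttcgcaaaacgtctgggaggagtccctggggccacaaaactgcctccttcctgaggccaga
TIMP3: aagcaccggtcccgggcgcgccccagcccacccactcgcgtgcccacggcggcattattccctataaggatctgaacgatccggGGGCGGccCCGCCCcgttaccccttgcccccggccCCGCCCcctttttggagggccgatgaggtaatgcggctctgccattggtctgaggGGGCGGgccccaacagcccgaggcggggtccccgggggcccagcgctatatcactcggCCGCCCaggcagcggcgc
TIMP1: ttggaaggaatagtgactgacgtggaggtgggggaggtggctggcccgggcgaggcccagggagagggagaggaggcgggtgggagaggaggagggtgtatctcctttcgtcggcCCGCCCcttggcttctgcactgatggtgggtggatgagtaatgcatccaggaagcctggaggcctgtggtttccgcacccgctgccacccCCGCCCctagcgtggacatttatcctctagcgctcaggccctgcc
The PLAUR window held the AP-1 motif, beginning 186 bases before the start site, and no GC box. The TIMP3 window held 5 GC boxes and the TIMP1 window 2, with no match of TGANTCA in either. Sites that depart from those letters, such as TGAGTAA in the TIMP1 window, were not searched for or marked. Of 35116 windows of this length in the RefSeq table, 6.57% held the AP-1 motif and 42.6% the GC box on either strand. The windows were rich in G and C, with 63.2% in PLAUR, 72.4% in TIMP3 and 64.8% in TIMP1 against a median of 58.0% over all windows. PLAU and MMP14, the other members with windows, had no match of TGANTCA. PLAU had GC boxes beginning 66, 51 and 40 bases before a start site, and MMP14 had a GC box beginning 66 bases before its own. These matches describe letters in the windows, and any link to the direction of a gene was not tested.

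Total counts per library were between 17673537 and 26138924. Levels are given as CPM, the count scaled to the size of its library after TMM adjustment, each gene was tested against UT of the same time and batch with edgeR's quasi-likelihood test, and a gene was called differentially expressed (DE) at a Benjamini-Hochberg adjusted p-value under 0.05 over all genes tested. At 24 h, 3 libraries stood apart from their own groups in the direction of the difference between UT of batch 2 and UT of batch 1: CKI replicate 1, OO replicate 2 and N_3 replicate 2. Their slopes on that difference were 0.69, 0.62 and 0.68, and the highest slope of the other 51 libraries was 0.17. N_2 replicate 3 at 24 h also differed from the rest of its group, by over 2-fold in 497 of 13332 genes. In the sample titles and column headers the 3 libraries carry the treatment name without the number that the other 24 h libraries have, and what sets them apart was not tested. Where leaving the 3 out changed the call of a member at 24 h, both values are given. The mesenchymal markers VIM and CD44 were high in all 54 libraries (at least 488 and 328 CPM), the estrogen and progesterone receptor genes ESR1 and PGR had at most 8 and 2 counts, and CDH1 reached 7.19 CPM. ERBB2 had counts in all 54 libraries, at 32.2 to 113 CPM, as did the epithelial gene EPCAM, at 6.19 to 27.6 CPM. Of the 8 fibroblast genes checked, 4 had counts in all 54 libraries, with COL1A1 at 8.87 to 65.2 CPM, COL1A2 at 0.663 to 44.6, PDGFRB at 2.21 to 16.4 and LUM at 0.722 to 6.73. DCN and POSTN had counts in 16 and 19 libraries, at most 17 and 24, and COL3A1 and PDGFRA reached 90 and 18 counts. The summed level of that list was highest at 48 h in N_2, at 85.1 to 92.2 CPM against 73.3 to 76.0 in UT of that batch, and lowest in N_Nme, at 14.5 to 23.8 against 33.6 to 43.6 in UT of batch 2. Its part in the results was not tested.

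**Figure D1:**
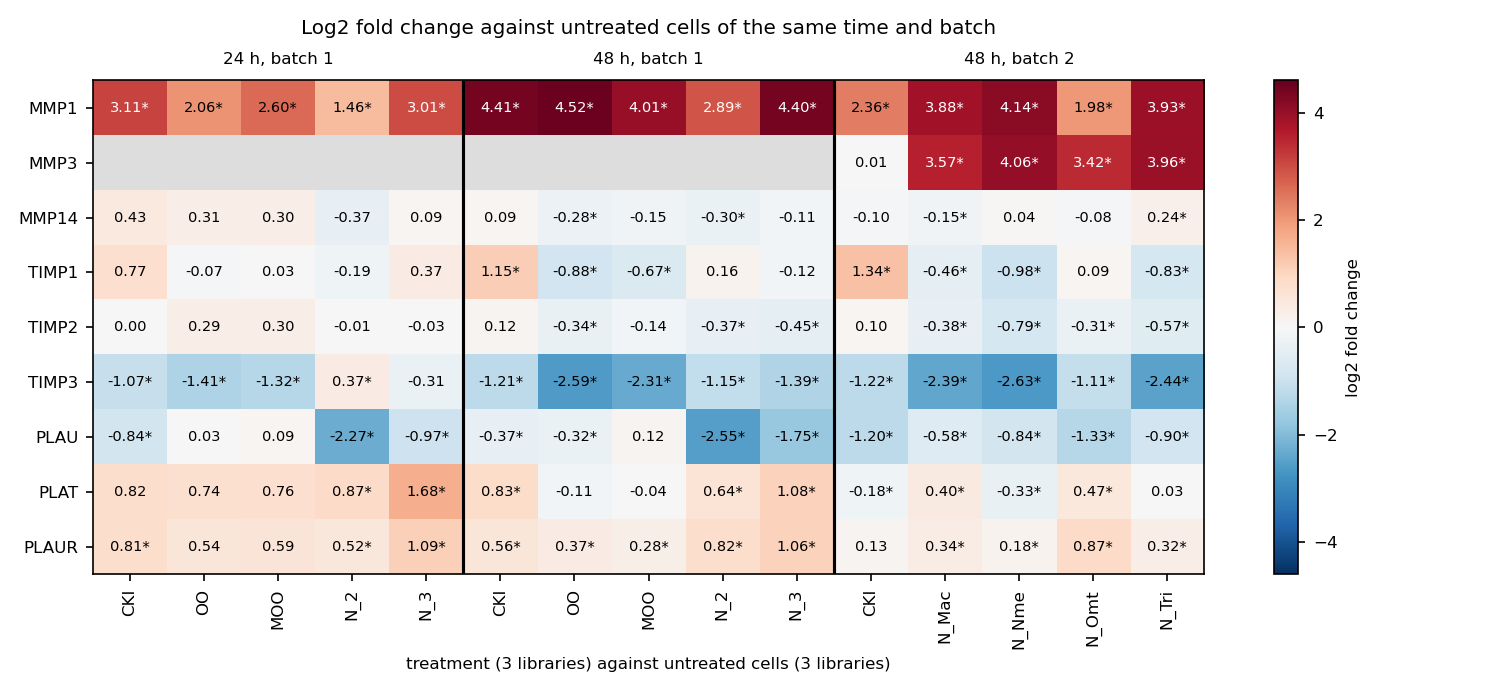
Log2 fold change of the 9 genes (rows) in 15 comparisons of a treatment with UT of the same time and batch (columns). Red is higher and blue lower than UT, an asterisk marks an adjusted p-value under 0.05, and grey marks MMP3 in batch 1, where its counts were too low for a fitted fold. MMP1 was called higher in 15 of 15 comparisons, TIMP3 lower in 13 and PLAU lower in 12.

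MMP1, the interstitial collagenase, rose in 15 of 15 comparisons with UT, by 1.46 to 4.52 on the log2 scale. In UT of batch 1 at 48 h its level was 9.82, 8.99 and 8.99 CPM. With CKI it was 212.7, 194.5 and 183.7 CPM, with OO 208, 209 and 226, and with N_3 229, 206 and 155. The weakest response of that time and batch was to N_2, at 62.0, 72.1 and 71.9 CPM. No treated library overlapped UT. The log2 fold changes were 4.41 ± 0.125 (SE) with CKI, 4.52 ± 0.125 with OO, 4.01 ± 0.124 with MOO, 2.89 ± 0.122 with N_2 and 4.40 ± 0.125 with N_3. The largest edgeR adjusted p among these 5 was 2.11e-15.

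At 24 h in batch 1 the rise of MMP1 was smaller. UT libraries held 10.55, 10.8 and 9.18 CPM. CKI libraries held 65.4, 96.3 and 102.7 CPM, and N_2 libraries 26.6, 19.4 and 36.9 CPM. The lowest CKI value is that of replicate 1, and even it was above every UT library. Log2 fold changes were 3.11 ± 0.286 (SE) with CKI, 2.06 ± 0.277 with OO, 2.60 ± 0.281 with MOO, 1.46 ± 0.276 with N_2 and 3.01 ± 0.285 with N_3, with a largest edgeR adjusted p of 0.000207. Without the 3 libraries that stood apart they were 3.28, 2.18, 2.60, 1.46 and 3.30, and without N_2 replicate 3 the fold of N_2 was 1.21 (edgeR adjusted p = 0.00181).

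In batch 2 MMP1 began from a higher level, 23.2, 19.3 and 27.2 CPM in UT. CKI gave 115.9, 122.3 and 119.6 CPM, and N_Omt, the mixture without oxymatrine, gave 89.5, 93.4 and 92.7. The other removals gave the highest MMP1 levels of the series, at 339.7, 329 and 351 CPM with N_Mac, 362, 354 and 373 with N_Tri, and 420.0, 422 and 404 with N_Nme. The 3 groups without macrozamin, trifolirhizin or N-methylcytisine thus lay far above CKI, and N_Omt below it, with no overlap. From UT the log2 fold changes were 2.36 ± 0.0692 (SE) with CKI, 3.88 ± 0.0698 with N_Mac, 4.14 ± 0.0701 with N_Nme, 1.98 ± 0.0697 with N_Omt and 3.93 ± 0.0699 with N_Tri.

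**Figure D2:**
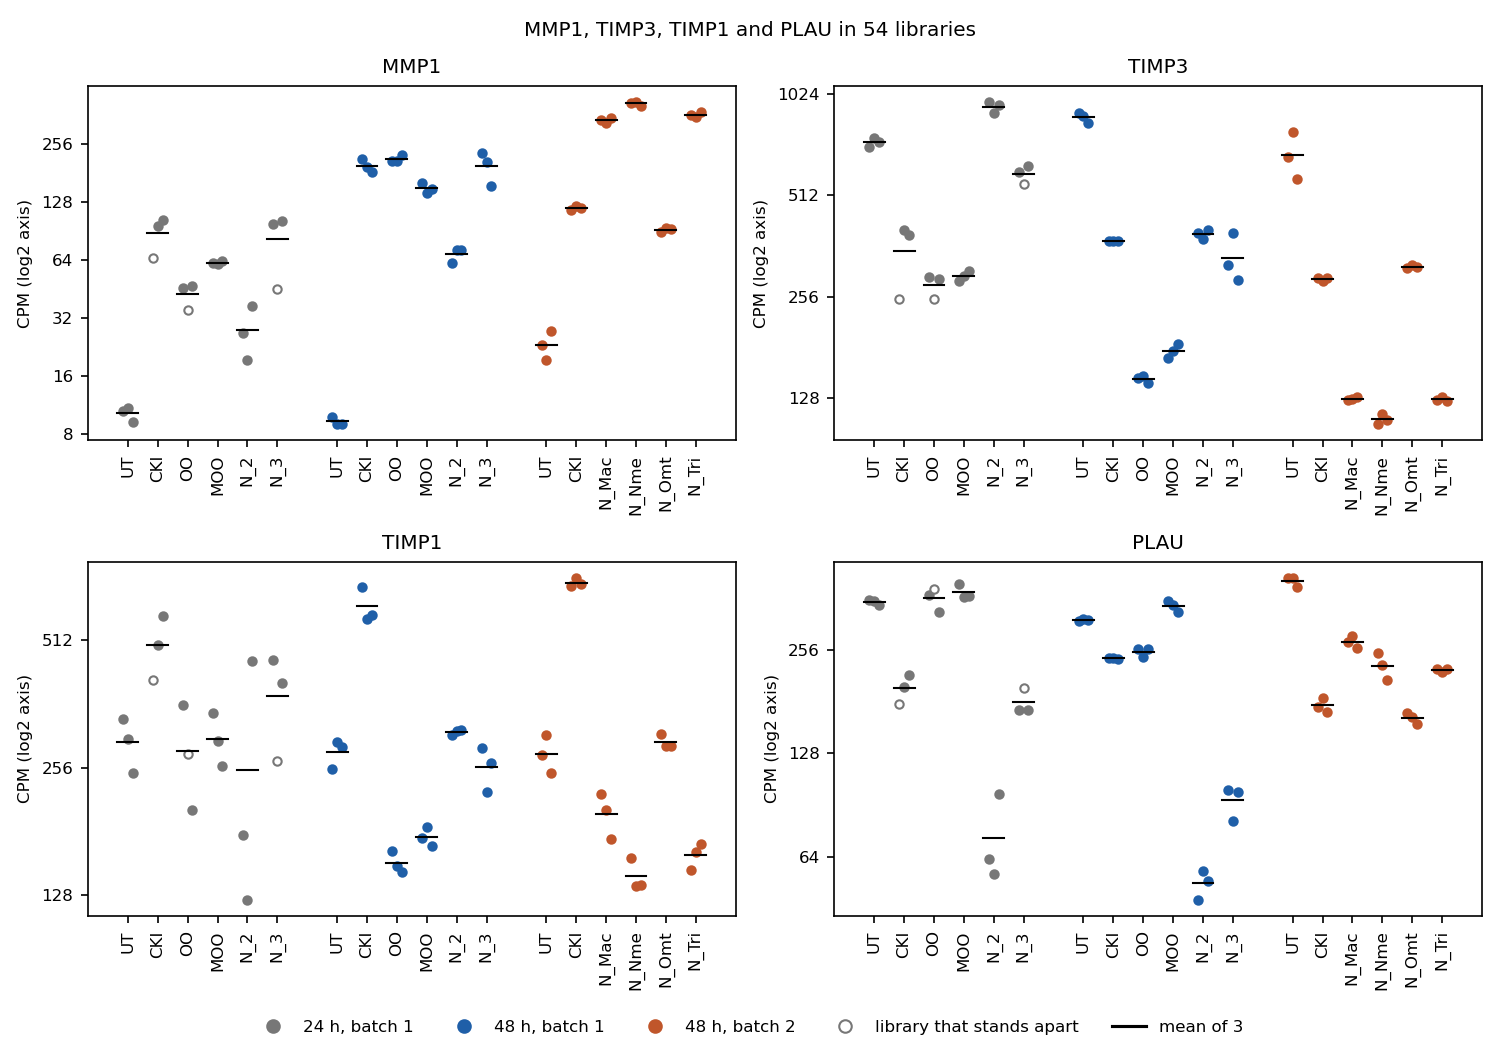
Levels of MMP1, TIMP3, TIMP1 and PLAU in CPM on a log2 axis in each of the 54 libraries, by group (x axis). Points are libraries, coloured by time and batch, open points are the 3 libraries that stood apart and black bars are means of 3. MMP1 spanned 9.27 to 415 CPM between group means, TIMP3 fell to 111 CPM with N_Nme, TIMP1 was highest with CKI at 48 h, and PLAU fell to 53.5 CPM with N_2 at 48 h.

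MMP3, stromelysin-1, was near the limit of detection in batch 1. Its counts in UT at 48 h were 0, 0 and 0, where 3 counts in a group is the floor used here. CKI gave 0, 0 and 3 counts, OO 4, 3 and 4, MOO 0, 1 and 7, N_2 13, 16 and 7, and N_3 20, 13 and 27. N_2 and N_3 stood above the rest of that batch. Observed MMP3 counts, set against the floor of 3 counts over the UT group, gave folds of 12.1 with N_2 and 21.5 with N_3. They gave 3.56 with OO and 2.6 with MOO. These folds allow for counting error in UT only, not in the treated counts, so they are not lower bounds. The edgeR adjusted p was 8.62e-05 for N_2, 5.9e-06 for N_3, 0.0163 for OO and 0.0408 for MOO. MMP3 passed the count filter of that fit only through N_2 and N_3, so these p-values are for a gene admitted where it was high. The call for MOO was lost without MOO replicate 3 (edgeR adjusted p = 0.349), and also without any 1 of the UT libraries, with adjusted p-values of 0.0823 to 0.0886. At 24 h MMP3 had too few counts for a test, with 6 at most in a library.

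In batch 2 the same gene separated CKI from the single removals. UT gave 6, 1 and 8 counts and CKI 1, 6 and 7. N_Mac gave 59, 45 and 67 counts, N_Nme 72, 86 and 93, N_Omt 61, 56 and 35, and N_Tri 47, 89 and 86. The CKI libraries lay within the UT range, and every library of the 4 removals lay above both. From UT these were log2 fold changes of 3.57 ± 0.352 (SE), 4.06 ± 0.328, 3.42 ± 0.36 and 3.96 ± 0.334 for N_Mac, N_Nme, N_Omt and N_Tri, with a largest edgeR adjusted p of 3.87e-10. For CKI the value was 0.01 ± 0.609 (edgeR adjusted p = 0.991), with a 95% confidence interval wide enough to hide a change of over 2-fold either way. MMP3 passed the count filter of this batch only through the 4 removals, so its p-values are for a gene admitted where it was high. MMP3 overlaps WTAPP1 on the opposite strand, which had 0 to 16 counts in a library, where MMP3 had 0 to 27 in batch 1. Even at its highest MMP3 was a minor transcript. Per kilobase of exon it stood at 1.73 CPM with N_Nme, where MMP1 stood at 211.

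MMP1 and MMP3 are neighbours on chromosome 11 in a row of 9 metalloproteinase genes, in the order MMP7, MMP20, MMP27, MMP8, MMP10, MMP1, MMP3, MMP12 and MMP13. MMP27 had no count in any library, and MMP7, MMP20, MMP8 and MMP12 had at most 10. MMP10 and MMP13, named after their values were seen, are the other stromelysin and the other collagenase with counts above that. MMP10 gave 114, 99 and 121 counts with N_Mac, 80, 70 and 81 with N_Nme, 58, 63 and 73 with N_Tri and 19, 20 and 15 with N_Omt, against 1, 2 and 7 in UT of batch 2. MMP13 instead gave 195, 174 and 179 counts with N_2 at 48 h, against 2, 1 and 4 in UT, while OO gave 3, 2 and 1. Of 10 comparisons in which it was tested, MMP10 was called higher in 8, and MMP13 was called higher in 6 of 15. Both passed the count filter through mixtures in which they were high, so these calls are for genes admitted where they were high.

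**Figure D3:**
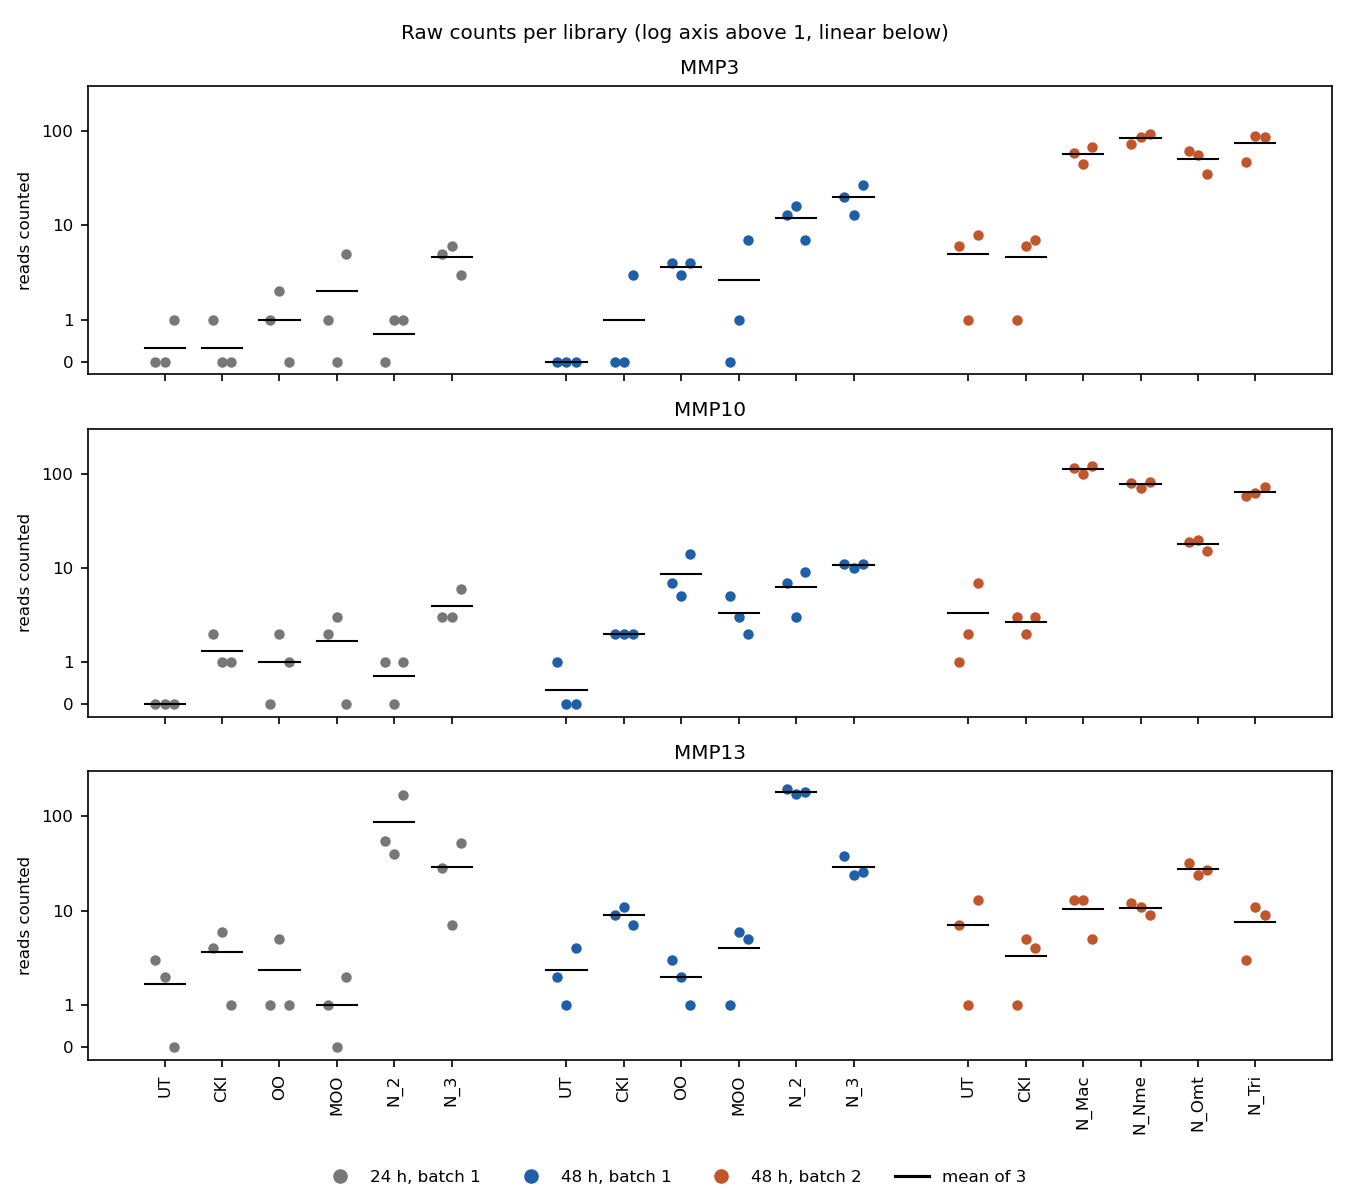
Reads counted for MMP3, MMP10 and MMP13 in each library (y axis, logarithmic above 1 and linear below), by group (x axis) and coloured by time and batch, with bars at the mean of 3. MMP3 and MMP10 were highest in the single removals of batch 2, while MMP13 was highest with N_2, at 174 to 195 counts after 48 h.

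MMP14, the membrane-type enzyme, was abundant and moved little. Its group means lay between 553 and 1063 CPM, and in 16 of 17 steps of the ordered groups the neighbours overlapped. It was called in 4 of 15 comparisons. In batch 2 UT gave 890.2, 838 and 907 CPM and N_Tri 1030.0, 1041 and 1116 CPM, so N_Tri stood above UT with a log2 fold change of 0.24 ± 0.0482 (SE, edgeR adjusted p = 4.38e-05). It fell by 0.28 with OO and by 0.30 with N_2 at 48 h in batch 1, and by 0.15 with N_Mac, on the log2 scale. At 24 h N_2 gave 462, 374 and 822 CPM against 739, 697 and 737 in UT. The high value is replicate 3. Without it the log2 fold change was -0.76 (edgeR adjusted p = 3.51e-05), and with it -0.37 (adjusted p = 0.107).

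The inhibitors did not move as a block. TIMP1, a secreted inhibitor, gave 255, 294 and 287 CPM in UT of batch 1 at 48 h and 683, 576 and 586 CPM with CKI. In batch 2 it gave 274, 306 and 248 CPM in UT and 685, 719 and 693 with CKI. CKI therefore raised TIMP1 in both batches with no overlap, by 1.15 ± 0.086 (SE) and 1.34 ± 0.0745 on the log2 scale (edgeR adjusted p = 2.78e-10 and 2.54e-16). No mixture raised it. OO libraries held 163, 150.2 and 145 CPM, and N_Nme libraries 156, 134.5 and 135 CPM, all below UT. TIMP1 fell by 0.88 with OO, 0.67 with MOO, 0.46 with N_Mac, 0.98 with N_Nme and 0.83 with N_Tri on the log2 scale. With N_2, N_3 and N_Omt at 48 h the values were 0.16 ± 0.0853, -0.12 ± 0.0854 and 0.09 ± 0.0742, none called. These 3 mixtures lack oxymatrine, but N_2 and N_3 also lack oxysophocarpine, N_3 lacks macrozamin too, and N_Omt is of the other batch. The part of any single compound in this was not tested. At 24 h the 5 log2 values ran from -0.19 with N_2 to 0.77 with CKI and did not pass the test. Without N_2 replicate 3 the value with N_2 was -0.93 (edgeR adjusted p = 0.00645), which passed it. CKI then gave 412.9, 498 and 585 CPM against 334, 298 and 249, a log2 fold change of 0.77 ± 0.349 (SE, edgeR adjusted p = 0.108).

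TIMP2, which also takes part in activation of proMMP2 with MMP14, was lower in 7 of 15 comparisons and higher in none. In batch 2 it stood at 907, 959 and 893 CPM in UT and at 542, 543 and 528 with N_Nme, the lowest group. There the log2 fold changes were -0.79 ± 0.0497 (SE) with N_Nme, -0.57 ± 0.0495 with N_Tri, -0.38 ± 0.0494 with N_Mac and -0.31 ± 0.0493 with N_Omt, with a largest edgeR adjusted p of 1.38e-06. With CKI the value was 0.10 ± 0.0492 (edgeR adjusted p = 0.0742). In batch 1 at 48 h OO, N_2 and N_3 lowered it by 0.34, 0.37 and 0.45. At 24 h OO and MOO had values of 0.29 and 0.30, not called with all libraries. Without the 3 libraries that stood apart these were 0.37 and 0.30, with edgeR adjusted p-values of 0.0112 and 0.0215.

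TIMP3, the inhibitor that binds to the matrix, fell in 13 of 15 comparisons. In UT of batch 1 at 48 h it stood at 899, 879 and 839.7 CPM. CKI gave 375, 376 and 375 CPM, N_2 396, 381 and 405, OO 147, 149 and 142, and MOO 168, 177 and 186. The groups fell into steps, with UT at the top, CKI, N_2 and N_3 between, and OO and MOO at the bottom. The log2 fold changes were -1.21 ± 0.0851 (SE) with CKI, -1.15 ± 0.085 with N_2, -1.39 ± 0.0856 with N_3, -2.31 ± 0.0883 with MOO and -2.59 ± 0.0894 with OO.

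The same steps stood in batch 2. UT gave 667, 787 and 574 CPM, CKI 292, 286 and 292, and N_Omt 312, 318 and 315. N_Mac gave 126.5, 127.5 and 129.7 CPM, N_Tri 126.5, 129.3 and 125.6, and N_Nme 107.5, 115 and 110.2. TIMP3 fell by 1.22 ± 0.0652 (SE) with CKI and 1.11 ± 0.065 with N_Omt, on the log2 scale. With N_Mac, N_Tri and N_Nme the values were -2.39 ± 0.0684, -2.44 ± 0.0687 and -2.63 ± 0.0692. At 24 h CKI, OO and MOO lowered it, by 1.07, 1.41 and 1.32. N_3 gave -0.31 (edgeR adjusted p = 0.0729), and without the 3 libraries that stood apart -0.26 (adjusted p = 0.0154), a call. N_2 at 24 h instead gave 968, 896 and 949.9 CPM against 713, 759 and 739 in UT, a log2 fold change of 0.37 ± 0.136 (SE, edgeR adjusted p = 0.025). That rise depended on the scaling of libraries, since it was 0.06 (edgeR adjusted p = 0.672) on library sizes alone, where the median of all genes in that comparison shifted by -0.29, and it was lost without N_2 replicate 1 or UT replicate 1 or 3 (adjusted p of 0.0619 to 0.0806).

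PLAU, urokinase, fell in 12 of 15 comparisons and rose in none. The removal of both alkaloids gave the lowest levels. In batch 1 at 48 h UT stood at 311, 315 and 313 CPM, N_2 at 48.0, 57.9 and 54.4 and N_3 at 100.3, 81.2 and 99.1. CKI gave 243, 242 and 242 CPM, and MOO gave 354, 345.0 and 330.2. N_2 and N_3 were thus below every other group of the series at 48 h, and the MOO libraries lay above UT. The log2 fold changes were -2.55 ± 0.08 (SE) with N_2, -1.75 ± 0.0772 with N_3, -0.37 ± 0.0743 with CKI, -0.32 ± 0.0743 with OO and 0.12 ± 0.0741 with MOO, the last not called (edgeR adjusted p = 0.175). At 24 h the order was alike, with N_2 at 63.1, 56.8 and 97.4 CPM, N_3 at 171, 198 and 171, and UT at 359, 356 and 347. The 24 h log2 fold changes were -2.27 ± 0.159 (SE) with N_2, -0.97 ± 0.153 with N_3 and -0.84 ± 0.152 with CKI. OO and MOO had values of 0.03 ± 0.151 and 0.09 ± 0.151.

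In batch 2 PLAU fell with all 5 treatments. UT gave 416, 415.5 and 391 CPM, CKI 174.5, 186 and 169, N_Omt 168, 164 and 156, and N_Mac 269.9, 281 and 259.9. The lowest groups were N_Omt and CKI. Log2 fold changes were -1.20 ± 0.0577 (SE) with CKI, -1.33 ± 0.058 with N_Omt, -0.90 ± 0.0572 with N_Tri, -0.84 ± 0.057 with N_Nme and -0.58 ± 0.0567 with N_Mac. PLAU overlaps an antisense gene, C10orf55, whose counts came to at most 2.39% of those of PLAU in a library. The genes overlapping MMP1, TIMP1, TIMP2 and TIMP3 came to at most 0.539% of theirs.

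PLAUR, the urokinase receptor, rose in 12 of 15 comparisons and fell in none. In batch 1 at 48 h UT held 71.8, 79.4 and 77.5 CPM, N_3 175, 138 and 164, N_2 133, 138 and 134, and CKI 120.7, 108 and 108. No treated library of that time overlapped UT. The log2 fold changes were 1.06 ± 0.0771 (SE) with N_3, 0.82 ± 0.0769 with N_2, 0.56 ± 0.0768 with CKI, 0.37 ± 0.077 with OO and 0.28 ± 0.077 with MOO. In batch 2 N_Omt stood out, at 228, 215 and 209 CPM against 118, 112.6 and 125 in UT, a log2 fold change of 0.87 ± 0.0592 (SE, edgeR adjusted p = 1.29e-14). CKI in that batch gave 128, 131 and 130.0 CPM, with a value of 0.13 ± 0.0598 (edgeR adjusted p = 0.0517). At 24 h N_2 gave 98.2, 73.2 and 154.7 CPM, and its call, with a log2 fold change of 0.52, was lost without replicate 3 (0.18, edgeR adjusted p = 0.273). That call was also lost without UT replicate 2 or 3 (edgeR adjusted p = 0.0543 and 0.0806). With MOO at 24 h the value was 0.59 (edgeR adjusted p = 0.06), and it was called when the 3 libraries that stood apart were left out (0.59, adjusted p = 0.0421).

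PLAT, tissue plasminogen activator, rose in 7 comparisons and fell in 2. In batch 1 at 48 h UT held 538, 567 and 573 CPM, CKI 1006, 964 and 1003, N_2 785, 885 and 941, and N_3 1190.0, 1398 and 963. OO and MOO overlapped UT, at 474 to 550.0 and 514 to 569.6 CPM, each with its lowest library below the lowest of UT. Log2 fold changes were 0.83 ± 0.101 (SE) with CKI, 0.64 ± 0.101 with N_2 and 1.08 ± 0.102 with N_3. In batch 2 N_Omt and N_Mac raised it by 0.47 and 0.40, while CKI and N_Nme lowered it by 0.18 ± 0.0516 and 0.33 ± 0.0517.

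At 24 h the libraries that stood apart bore on the calls of PLAT. CKI gave 298, 886 and 873 CPM, OO 807, 382 and 757, and N_3 1481, 827 and 1395, against 384, 391 and 389 in UT. The low value of each trio is the library that stood apart, and in CKI and OO it fell below the lowest UT library. With all libraries the log2 fold changes were 0.82 with CKI, 0.74 with OO, 0.76 with MOO and 1.68 with N_3, and only that of N_3 was called among these 4 (edgeR adjusted p = 0.000725). Without the 3 libraries they were 1.18, 1.01, 0.76 and 1.90, all called, with edgeR adjusted p-values of 3.07e-06, 2.27e-05, 0.000113 and 7.88e-09. With N_2 the value was 0.87 (edgeR adjusted p = 0.0292), and it was not called without N_2 replicate 3 (0.74, adjusted p = 0.0955). Nor was it called without UT replicate 1, 2 or 3 (edgeR adjusted p = 0.0704, 0.0659 and 0.0676).

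**Figure D4:**
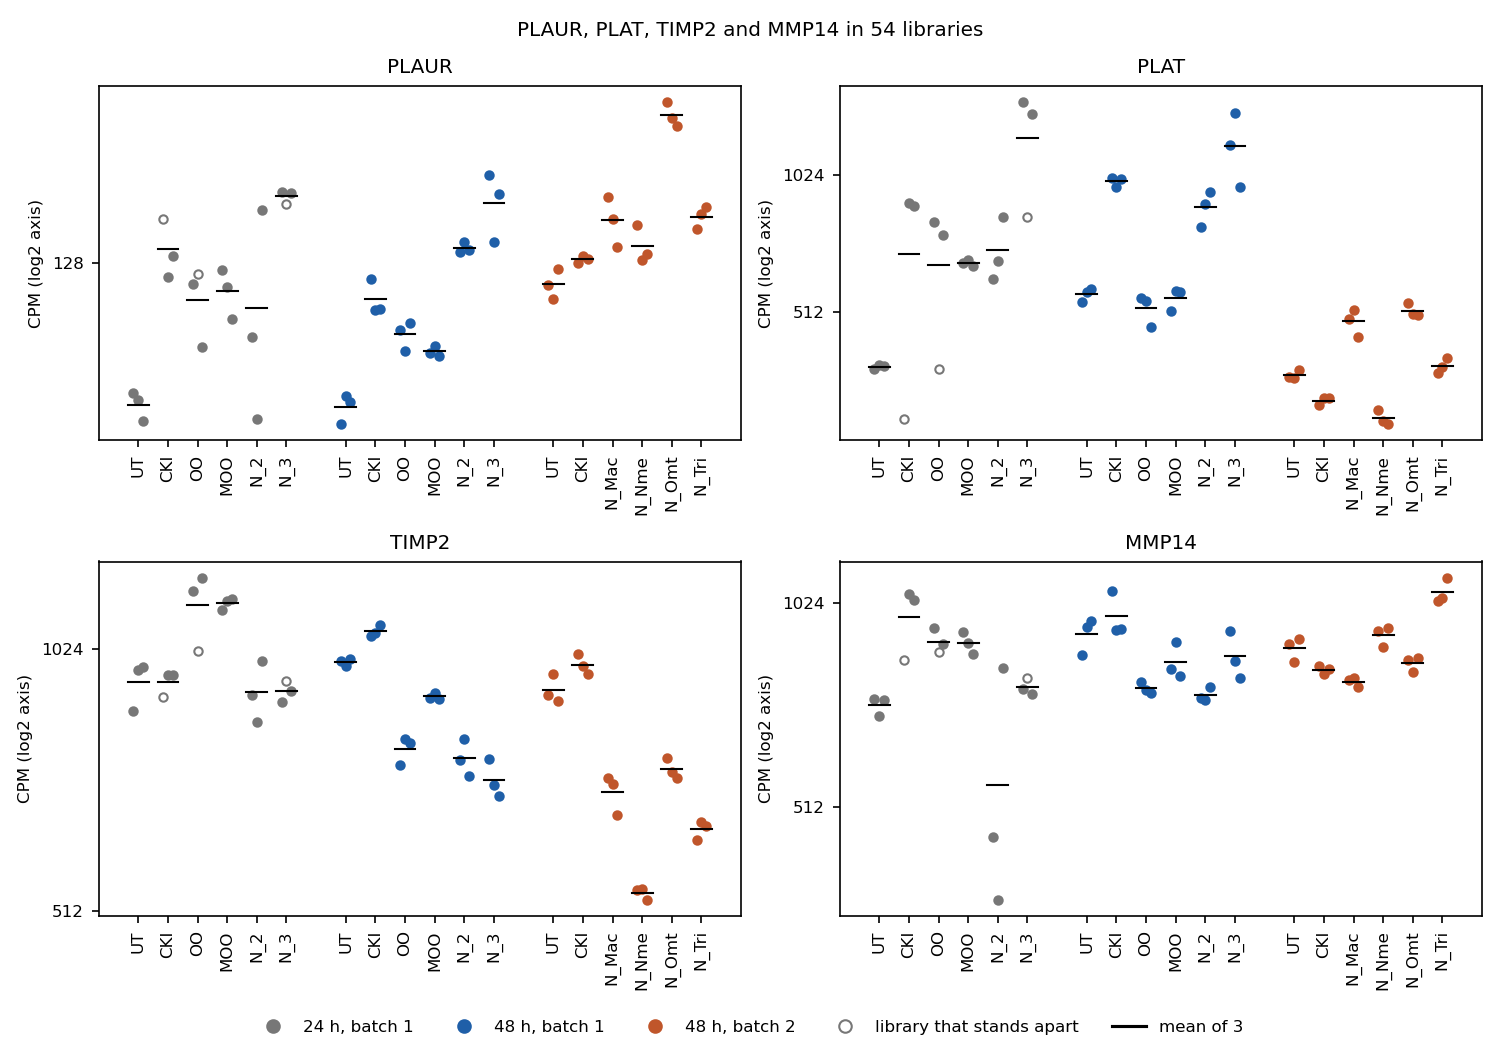
Levels of PLAUR, PLAT, TIMP2 and MMP14 in CPM on a log2 axis in the 54 libraries, with groups, colours, open points and bars as in the plot of MMP1. PLAUR was highest with N_Omt at 218 CPM, and at 24 h the open points of PLAT sat at 298, 382 and 827 CPM, each the lowest of its group.

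The number of members called is set here beside the share of all genes called. After 24 h in batch 1, 4 of 8 members tested were called with CKI where 30.0% of 15191 genes were, 2 with OO (16.7% of genes), 2 with MOO (10.5%), 5 with N_2 (62.1%) and 4 with N_3 (45.0%). Without the 3 libraries that stood apart the counts were 5, 4, 5, 5 and 5, with 32.7%, 22.3%, 20.2%, 68.5% and 54.2% of genes called. After 48 h in batch 1, 6 of 9 members were called with CKI (54.0% of 15513 genes), 8 with OO (57.8%), 5 with MOO (51.2%), 8 with N_2 (76.6%) and 7 with N_3 (71.1%). In batch 2 the counts were 5 of 9 with CKI (66.4% of 15115 genes), 9 with N_Mac (72.4%), 8 with N_Nme (71.3%), 7 with N_Omt (78.2%) and 8 with N_Tri (72.2%). With so many genes called in all, the counts say little of these genes as a group. At 48 h the median absolute log2 fold change of the 9 members was 0.83 with CKI in batch 1 against 0.34 over all genes, and 0.18 against 0.37 in batch 2. In batch 1 it was 0.37 against 0.38 with OO, 0.28 against 0.33 with MOO, 0.82 against 0.68 with N_2 and 1.08 against 0.56 with N_3. In batch 2 it was 0.46 against 0.46 with N_Mac, 0.84 against 0.43 with N_Nme, 0.87 against 0.56 with N_Omt and 0.83 against 0.46 with N_Tri. These medians include MMP3, whose counts in batch 1 were too low for a fitted fold.

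The mixtures were next compared with CKI itself, which asks what a removal changed, in 12 comparisons. At 48 h TIMP1 was lower than with CKI in all 8. The differences ran from -0.99 ± 0.0857 (SE) with N_2 to -2.32 ± 0.0776 with N_Nme on the log2 scale, and the largest edgeR adjusted p was 6.79e-10. TIMP2 was lower in all 8 as well, by -0.26 ± 0.0625 with MOO to -0.89 ± 0.0498 with N_Nme. MMP3 was higher than with CKI in N_2, N_3 and the 4 single removals, the same mixtures through which it passed the count filter. MMP1 exceeded CKI by 1.52 ± 0.0603 with N_Mac, 1.78 ± 0.0605 with N_Nme and 1.57 ± 0.0604 with N_Tri, and lay below CKI by 0.39 ± 0.0617 with N_Omt, by 0.40 ± 0.101 with MOO and by 1.52 ± 0.105 with N_2. With OO and N_3 its differences of 0.11 ± 0.101 and -0.01 ± 0.101 were not called.

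TIMP3 at 48 h was lower than with CKI in 5 mixtures. It fell by 1.17 ± 0.0671 (SE) with N_Mac, 1.41 ± 0.0676 with N_Nme, 1.23 ± 0.0673 with N_Tri, 1.38 ± 0.0862 with OO and 1.10 ± 0.0856 with MOO. With N_2, N_3 and N_Omt no difference of TIMP3 from CKI passed the test at 48 h. The values were 0.07 (95% confidence interval -0.11 to 0.24) with N_2, -0.17 (-0.35 to 0.00) with N_3 and 0.11 (-0.02 to 0.24) with N_Omt. At 24 h TIMP3 was higher than with CKI in N_2 by 1.45 ± 0.138 (SE, edgeR adjusted p = 2.76e-07) and in N_3 by 0.76 ± 0.137 (adjusted p = 0.000478). PLAU at 48 h was lower than with CKI in N_2 and N_3, by 2.18 ± 0.0791 and 1.38 ± 0.0766. It was higher then in MOO, N_Mac, N_Nme and N_Tri, by 0.31 to 0.62. PLAU libraries of N_2 at 24 h, at 56.8 to 97.4 CPM, lay below those of CKI, at 178 to 217. Those of N_3, at 171 to 198 CPM, overlapped CKI. PLAUR exceeded CKI most in N_Omt, by 0.74 ± 0.0591. The background was high in most of these comparisons. At 48 h the members called of 9 were 6 with OO (51.8% of genes), 8 with MOO (47.6%), 7 with N_2 (73.1%) and 7 with N_3 (67.2%). In batch 2 they were 8 with N_Mac (69.4%), 8 with N_Nme (71.5%), 6 with N_Omt (76.3%) and 9 with N_Tri (71.4%). At 24 h 2, 1, 5 and 1 of 8 members were called with OO, MOO, N_2 and N_3, where 8.49%, 11.6%, 58.7% and 35.7% of genes were. When the libraries that stood apart were left out these counts were 4, 4, 6 and 2 (11.2%, 14.9%, 61.7% and 43.7% of genes). The added calls were TIMP2 (0.35) and TIMP3 (-0.46) with OO, MMP1 (-0.68), TIMP3 (-0.43) and PLAT (-0.42) with MOO, and PLAT with N_2 and N_3 (-0.31 and 0.72), where PLAT with N_2 had been 0.05.

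**Figure D5:**
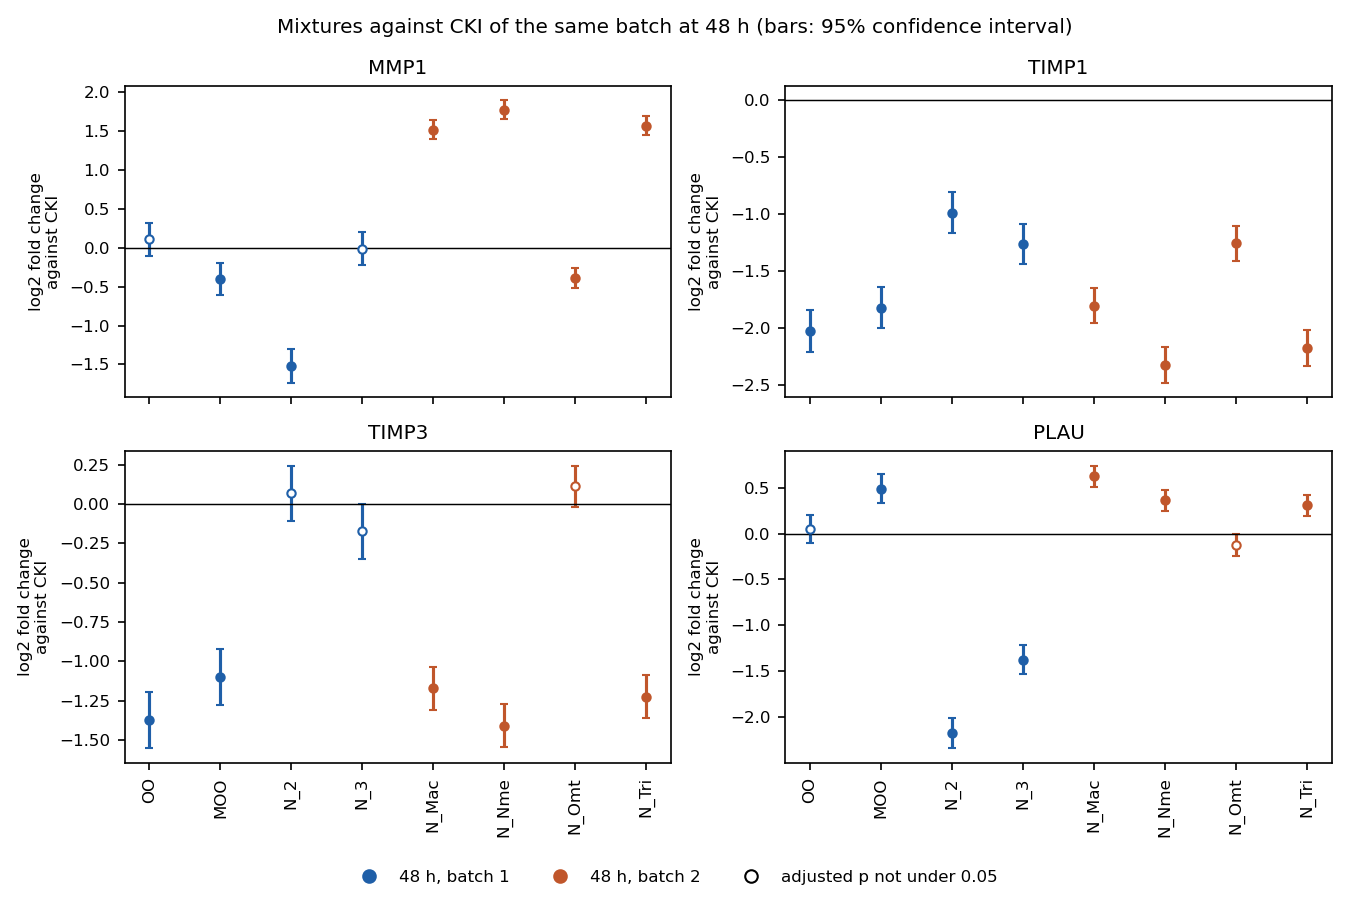
Log2 fold change of 8 mixtures against CKI of the same batch at 48 h (y axis) for MMP1, TIMP1, TIMP3 and PLAU, with 95% confidence intervals. Open points did not reach an adjusted p-value under 0.05. TIMP1 lay below CKI with every mixture, from -0.99 to -2.32, while MMP1 lay above CKI with N_Mac, N_Nme and N_Tri and TIMP3 below it with these and with OO and MOO.

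Macrozamin was the single difference between MOO and OO and between N_3 and N_2. Adding it to the alkaloids called no member at 24 h and no gene at all, with 566 genes of 15191 at an unadjusted p under 0.05, none of them a member, and 0 genes with DESeq2. MMP1 was 61.8, 60.7 and 63.2 CPM with MOO then and 45.7, 35.0 and 46.9 with OO, higher without overlap but not called (0.54 ± 0.261, edgeR adjusted p = 0.775). Without the 3 libraries that stood apart no member was called and 0.0195% of genes were. At 48 h MOO differed from OO in 2 of 9 members, where 1.98% of genes were called: MMP1 was lower by -0.51 ± 0.101 (SE, edgeR adjusted p = 0.00748) and PLAU higher by 0.44 ± 0.0743 (adjusted p = 0.00188). N_3, which lacks macrozamin, differed from N_2 in 4 of 8 members at 24 h (47.6% of genes) and in 7 of 9 at 48 h (51.0%). PLAT at 24 h, at 0.81 (edgeR adjusted p = 0.0524), was also called without the 3 libraries, at 1.03 (adjusted p = 4.84e-06). MMP1 was higher in N_3 by 1.55 ± 0.267 and 1.51 ± 0.105 at 24 and 48 h, and PLAU by 1.30 ± 0.155 and 0.80 ± 0.0779. At 48 h MMP1 was thus higher without macrozamin in both backgrounds, while at 24 h the uncalled value beside the alkaloids had the other sign. PLAU was higher with it beside the alkaloids and higher without it in N_3.

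The plasminogen system was followed further through 21 partner genes, of which 18 had enough counts for a test in each time and batch. They were not always the same 18, since SERPINA5 was tested in 10 comparisons and SERPINB2 in 5. Called were between 4 of the 18 tested, with MOO at 24 h where 10.5% of all genes were, and 16, with N_3 at 48 h, N_Mac and N_Tri (71.1%, 72.4% and 72.2% of genes). SERPINE2, an inhibitor of urokinase, rose in 11 of 15 comparisons, most with N_2 at 48 h (2.45 ± 0.0736). ANXA2, a surface partner of plasminogen and PLAT, fell in 13 comparisons and rose in none, with values of -1.31 to -0.06. THBD, thrombomodulin, fell in 14.

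Of 20 other metalloproteinase genes, 10 to 12 were tested in each time and batch. Called were from 1, with OO and MOO at 24 h (16.7% and 10.5% of all genes), to 9, with N_3 at 48 h (71.1%). MMP15, another membrane-type enzyme, was called in 9 comparisons and rose in 8 of these. It went from 40.2 ± 3.58 CPM (SD, n = 3) in UT to 182 ± 15.3 with N_2 and 84.0 ± 5.54 with CKI at 48 h in batch 1. Of 16 ADAM and ADAMTS genes 13 were tested, and from 5 (MOO at 24 h, 10.5% of genes) to 13 (N_2 at 48 h, 76.6%, and N_Omt, 78.2%) were called. ADAMTS6 rose in 12 comparisons, and with CKI at 48 h it fell in both batches (-0.31 in batch 1, edgeR adjusted p = 0.0437). ADAMTS15 fell in 12 and rose with CKI in batch 2 (0.41, edgeR adjusted p = 6.44e-05). ADAM8 and ADAMTS1 also had calls both ways. Of 16 activators, inhibitors and surface partners of the enzymes 15 were tested. None was called with OO or MOO at 24 h (16.7% and 10.5% of genes), and 14 were with OO at 48 h (57.8%). CTSL, a lysosomal protease, rose in 11 comparisons, by up to 1.90 with N_Omt, and the tetraspanin gene CD151 fell in 9. CD151 rose with CKI at 48 h in both batches (0.38 and 0.22, edgeR adjusted p = 0.00102 and 0.000657), and HPSE and FURIN also had calls both ways.

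A list of 15 transcription factors, members of the AP-1 and ETS families, whose sites lie in many protease promoters, and the zinc-finger factor EGR1, was tested whole. JUN rose in 15 of 15 comparisons, by 0.43 to 1.46. EGR1 rose in 9. FOSB rose in 9 and fell with N_Nme (-0.48, edgeR adjusted p = 0.0207), and ELF3 rose in 6 and fell in 5. JUN stood at 267 ± 11.8 CPM (SD, n = 3) in UT of batch 2 and at 552 ± 21.5 with N_Omt. The number of the 15 genes called was lowest with MOO at 24 h, at 3 (10.5% of all genes), and highest with N_2 at 48 h, at 14 (76.6%), of which 12 were higher.

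Time changed the responses of MMP1, TIMP2 and TIMP3 in batch 1, tested as the treatment effect at 48 h minus that at 24 h over 36 libraries. The rise of MMP1 was larger at 48 h by 2.48 with OO, 1.42 with MOO, 1.45 with N_2 and 1.41 with N_3, and the response of TIMP3 differed by -1.16, -0.98, -1.49 and -1.06 in the same order. With N_2 TIMP3 went from above UT at 24 h to below it at 48 h, though the rise at 24 h depended on the scaling of libraries. The members called were 3 of 9 with OO (8.06% of genes), 3 with MOO (2.59%), 3 with N_2 (34.2%) and 4 with N_3 (7.35%). For CKI no member was called, where 0.391% of 15858 genes were. At an unadjusted p under 0.05 there were 2, MMP1 and PLAU, and DESeq2 called 1, MMP1. When the libraries that stood apart were left out MMP1 with CKI was called too (1.13, edgeR adjusted p = 0.00473), as was PLAT with OO, MOO and N_3 (-1.12, -0.81 and -0.81). UT at 48 and 24 h differed in no member by edgeR's test and in none by DESeq2, with 1.57% of genes called, and 3 members, MMP14, TIMP3 and PLAT, had an unadjusted p under 0.05. The genes called there were 249, and from 24, without UT 24 h replicate 1 or 2, to 131 with 1 UT library left out. They were 3571 with only these groups in the fit and 1346 without the 3 libraries that stood apart, when TIMP3 and PLAT were called (0.25 and 0.53).

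The size of the CKI response also differed between the batches at 48 h in 4 of 8 members tested, where 13.8% of genes were called. The rise of MMP1 was smaller in batch 2 by 2.03 ± 0.122 (SE), from a UT level that was higher there by 1.30 ± 0.0996. PLAU fell further in batch 2, and the rises of PLAUR and PLAT seen in batch 1 were smaller or absent, with differences of -0.82 ± 0.0651, -0.42 ± 0.0768 and -0.998 ± 0.0617. For TIMP1 and TIMP3 the differences were 0.21 (95% confidence interval 0.01 to 0.42) and 0.01 (-0.21 to 0.22), not called. UT of the batches differed in 6 of 8 members, where 60.5% of genes were called. A single removal and the batch 1 mixtures therefore have no common control, and no test was made between them.

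Across the 15 comparisons with UT, of which those of a time and batch share their 3 UT libraries, the pattern of each member was set beside those of 9779 genes at a mean of at least 10 CPM. The genes most like each by Pearson's r over the 15 log2 fold changes were B3GNT10 (0.82) and PACRGL (0.82) for MMP1, RHOT1 (0.85) and TMX1 (0.84) for MMP14, and ULBP2 (0.97) and GSN (0.96) for TIMP1. They were OLFML2A (0.97) and IGFBP7 (0.95) for TIMP2, SPDEF (0.96) and CYB5B (0.95) for TIMP3, and STX2 (0.97) and RBMS3 (0.96) for PLAU. For PLAUR they were LMBR1L (0.86) and PLAT (0.85), and for PLAT they were CSF1 (0.87) and PLAUR (0.85). Among the members themselves MMP1 and TIMP3 had the most opposed patterns, with r = -0.70. Pearson's r takes no account of the size or sign of the changes. B3GNT10 ran from -0.305 to 0.682 and PACRGL from -1.102 to 0.412, where MMP1 ran from 1.46 to 4.52. TMX1 ran from -1.111 to 0.084, where MMP14 ran from -0.37 to 0.43. The genes named were the highest of 9779, and no p-value was set on r.

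In the order of group means, MMP1 spanned 44.8-fold, TIMP3 8.45-fold, PLAU 7.62-fold, TIMP1 4.92-fold, PLAT 4.14-fold, PLAUR 2.85-fold, TIMP2 2.15-fold and MMP14 1.92-fold between the lowest and highest of 18 groups. Neighbours in that order overlapped in 10 of 17 steps for MMP1, 9 for TIMP3, 10 for PLAU and 16 for TIMP1. Per kilobase of exon, TIMP1 was the most abundant member in UT at 24 h (191 CPM per kilobase), followed by TIMP2 (167), MMP14 (162), TIMP3 (160), PLAU (120), PLAT (58.6), PLAUR (17.3), MMP1 (5.17) and MMP3. In UT of batch 2 at 48 h MMP14 was at the top, at 197 CPM per kilobase. TIMP1 stood there at 179, TIMP3 at 147 and MMP1 at 11.8. With N_Nme of that batch MMP1 and MMP14 were at the top, at 211 and 206 CPM per kilobase. TIMP1 and TIMP3 then stood at 92.2 and 24.1. The lengths were unions of all annotated exons of a gene, at 1970 bases for MMP1, 4464 for MMP14, 4457 for PLAUR and 6618 for PLAT. These can exceed the length of the transcript made, and no other length was tried, so the order of members may depend on this choice.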

How the data were processed

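RNA-seq of 54 MDA-MB-231 libraries was deposited as 1 table of raw read counts per gene symbol for 27978 genes. Per the labels' processing notes, the authors used FastQC 0.11.4, Trim Galore 0.3.7, STAR 2.5.3a, featureCounts of Subread 1.5.2 and edgeR 3.22.3 with the build hg19. The annotation and the strand setting of counting are not given in the sources used here, so reads of antisense pairs may not be told apart. The deposited counts were used as they stood. No column of the table was left without a sample.

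Genes were filtered with filterByExpr, scaled with TMM and tested with the quasi-likelihood test of edgeR 4.0.16 in R 4.3.3, with Benjamini-Hochberg adjustment over all genes tested. Each fit held the 18 libraries of 6 groups of 1 time and batch, which share 1 estimate of spread. Differences between times used the 36 libraries of batch 1, and differences between batches the 12 UT and CKI libraries at 48 h. The design calls the replicates biological but does not say what separates them. Contrasts asked for by the design were 15 against UT, 12 against CKI and 4 for macrozamin. The script was tested on simulated data. DESeq2 1.42.0 and other scalings, filters and sets of libraries were tried as alternatives. Total counts of 17673537 to 26138924 mean that 3 counts in a single library equal 0.115 to 0.17 CPM. The floor used for MMP3 was lower, at 3 counts over the summed depth of the UT group, and it covers counting error only. No replicates agreed within sampling noise. Correlations of deviations between libraries of the same replicate number ran from -0.45 to 0.48, with every pair over 0.1 in 0 of 15 comparisons, so the numbers were not taken as pairs.

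All 9 members were named in every comparison. From each further list, the genes averaging 10 CPM or more and called in at least 8 of the 15 comparisons with UT were named, at most 4 a list, by median absolute log2 fold change. A gene that this rule named is not reported here. For each member over 10 CPM the 2 genes most like it were named. MMP10 and MMP13 were named after their values were seen. The members and lists were chosen with earlier results of these data known. Exon lengths came from GENCODE and promoters from RefSeq GRCh38.p14, which had windows for 5 of the 9 members. Columns were assigned to samples by their headers.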

Additional observations from a re-analysis of the deposited data

Results flagged for a closer look

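The results below are those in which the response of a member to 1 treatment differed between times or batches by a test of the difference itself. Each value is a log2 difference, tested with edgeR, and the adjusted p stands beside it. No explanation was tested.

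Between 48 and 24 h in batch 1, the response of MMP1 was larger by 2.48 with OO (adjusted p = 5.57e-06), 1.42 with MOO (0.00964), 1.45 with N_2 (0.000668) and 1.41 with N_3 (0.00418). The response of TIMP3 differed by -1.16 with OO (3.2e-05), -0.98 with MOO (0.00095), -1.49 with N_2 (7.96e-08) and -1.06 with N_3 (0.000102). For TIMP2 the differences were -0.61 with OO (0.000539), -0.43 with MOO (0.0299), -0.32 with N_2 (0.0226) and -0.41 with N_3 (0.0192). PLAU differed by -0.76 with N_3 (0.00542). The 24 h groups of OO and N_3 each hold 1 of the libraries that stood apart. The values with N_2 rest on the TMM scaling of its 24 h group, where library sizes alone shifted the median of all genes by -0.29. The rise of TIMP3 with N_2 at 24 h was not called on library sizes alone.

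Between batch 2 and batch 1 at 48 h, the response to CKI differed by -2.03 for MMP1 (adjusted p = 6.29e-10), -0.998 for PLAT (9.21e-10), -0.82 for PLAU (3.06e-08) and -0.42 for PLAUR (0.00096). UT libraries of the batches also differed in these 4 genes, by 1.30, -0.62, 0.36 and 0.62 in the same order, so the size of the response and the starting level cannot be told apart.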

How the results depend on the processing

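Of 1850 log2 fold changes of members against UT recomputed under alternatives, 1723 kept their direction and their side of the threshold, 69 became called, 32 lost their call and 26 changed sign, none of the last being called. The alternatives for comparisons other than those with UT were chosen after seeing the data. Causes were not tested.

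The number of members called with CKI at 24 h was 7 with all 54 libraries in 1 fit, in place of 4. For MOO at 24 h it was 4 with DESeq2, 5 with all 54 libraries, 6 with only the groups compared and 5 without the 3 libraries that stood apart, in place of 2. For OO at 24 h it was 4, 5 and 4 with DESeq2, all 54 libraries and without those 3, in place of 2. For UT at 48 against 24 h it was 4 with only the groups compared and 2 without those 3, in place of 0. The CKI effect between batches was called in 2 members with all 54 libraries, in place of 4. Leaving out 1 library at a time gave 2 to 5 members for N_2 at 24 h, with 3 without UT replicate 1 or 2 and 2 without UT replicate 3.

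Signs changed near 0. TIMP2 with CKI at 24 h was -0.0027 with DESeq2, -0.0026 with RLE factors, -0.0010 with all 54 libraries and -0.0037 with genes over 1 CPM. TIMP2 with N_2 at 24 h was 0.0049 with both DESeq2 and RLE factors and 0.0183 over 1 CPM. PLAU with OO at 24 h was -0.0195 without the 3 libraries, and PLAT with MOO at 48 h was 0.0508 on library sizes alone. With 1 library left out at a time, the log2 values ran from -0.0546 to 0.0308 for TIMP2 with CKI at 24 h, -0.2891 to 0.1145 for TIMP1 with OO at 24 h, -0.0199 to 0.0970 for PLAU with OO at 24 h, -0.0808 to 0.1298 for TIMP1 with MOO at 24 h, -0.9272 to 0.1345 for TIMP1 with N_2 at 24 h, -0.0770 to 0.0410 for TIMP2 with N_2 at 24 h, -0.0719 to 0.0051 for PLAT with MOO at 48 h and -0.4434 to 0.5101 for MMP3 with CKI at 48 h in batch 2.

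Over all genes, those called with CKI at 24 h went from 4562 to 7404 with all 54 libraries, with MOO from 1588 to 4001, and with OO from 2543 to 5640. With only the groups compared MOO had 5097, and without the 3 libraries 3108. For UT at 48 against 24 h the 249 genes called became 703 with DESeq2, 1136 with all 54 libraries, 114 with no filter, 3571 with only the groups compared and 1346 without the 3 libraries, and for MOO against OO at 48 h the 307 became 505 with DESeq2, 27 with all 54 libraries and 1402 with only the groups compared. Library sizes alone moved the median log2 by -0.29 for N_2 at 24 h and by 0.11 for OO at 48 h, and the share of calls that were higher from 50.2% to 34.4% for N_2 at 24 h, 50.4% to 61.5% for OO and 50.2% to 60.5% for MOO at 48 h. With the replicate number as a block, 129 of 130 values kept their call, and PLAUR with CKI in batch 2 became called (0.13, edgeR adjusted p = 0.0403), so that 6 members were called there in place of 5.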
